A study of Mus musculus with 9 samples.

Results

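The G2 and mitosis genes described here are 48 genes whose products drive a cell out of G2, the gap between DNA synthesis and division, and through mitosis. They were chosen by symbol, and each was read from the brightest of the array's probe sets that name that gene alone. All 48 were measured, among 19938 genes in all. Every member lay above the median gene of each of the 9 arrays, and their mean levels ran between 9.33 and 12.99 on the log2 scale of the deposited values.

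RNA of mouse embryonic fibroblasts (MEFs) transformed with T antigen was hybridised to Affymetrix Gene ST arrays, 3 for each of 3 genotypes on a background labelled C57B/L6. The triple mutant (TM) MEFs lacked PRDX4 and carried mutations of ERO1alpha and ERO1beta, the double mutant (DM) MEFs carried the ERO1alpha and ERO1beta mutations alone, and the third group was labelled wild type (WT). ERO1alpha, ERO1beta and PRDX4 are thiol oxidases of the endoplasmic reticulum, the enzymes that pass oxidising equivalents to proteins as they fold. By the study's methods Ero1α was m/m in TM and DM MEFs and m/+ in control MEFs, Ero1β was m/m in all of them, and Prdx4 was m/y in TM and +/+ in DM and control MEFs, so that all 3 groups would share the Ero1β mutation and the controls would carry 1 mutant Ero1α allele, whereas the array labels say only wild type. The arrays were run to look into possible senescence of TM cultures, and genes of G2 and mitosis bear on how far a culture is dividing. Senescence was proposed from the shape of TM cells and from a prominent population of abnormally high DNA content, seen in primary MEFs. The methods describe both primary and immortalised MEFs, and whether each array stands for its own culture or embryo is not stated. The p-values are thus relative to a scatter among arrays that could be technical alone.

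Cells make most of these mRNAs late in the cell cycle. The MuvB complex joins first B-MYB and then FOXM1 to switch the genes on, and in resting cells the same core, as part of the DREAM complex, holds them off. Promoters of the group are known for a short element called the cell cycle genes homology region (CHR), often placed near CCAAT boxes bound by NF-Y. The proteins then act in sequence: cyclins and kinases start mitosis, condensins pack the chromosomes, kinetochores and motor proteins attach them to the spindle, the checkpoint delays separation until all are attached, and the anaphase-promoting complex and separase release the sister chromatids.

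The labels were first set against the mutated genes and against markers of cell type. Ero1a was -2.80 (log2) in TM against WT and -2.40 in DM against WT, and Prdx4 was -4.26 in TM against WT and 0.12 in DM against WT. Ero1b RNA was not lower in either mutant. It was 0.29 in TM against WT, called higher at any fold, and 0.055 in DM against WT, not called. The Ero1b values thus do not set the mutants below the arrays labelled WT. The paper states that ERO1β cannot be detected in MEFs, so these values do not settle the genotype of the WT arrays. Fibroblast markers (9 genes, summed on the linear scale) lay between 40076 and 42020 in TM, between 37664 and 38036 in DM and between 39359 and 40499 in WT arrays, sums in which Vim, the brightest of them, weighs heavily. Single markers differed both ways (log2, called at any fold), and Thy1 lay below the median gene in DM and WT arrays. In TM against WT 2 were higher, Thy1 (2.93) and Pdgfrb (1.23). Lower there were 3, S100a4 (-1.46), Col3a1 (-0.47) and Pdgfra (-0.21). In DM against WT 3 were higher, Pdgfrb (1.18), Col1a1 (0.53) and P4hb (0.22). Lower there were 4, S100a4 (-2.28), Pdgfra (-1.91), Col1a2 (-1.71) and Thy1 (-0.25). Markers of mesothelial and epithelial cells (9 genes) summed to 1602 to 1796 in TM, 15483 to 17113 in DM and 5070 to 5339 in WT arrays. In DM against WT 5 of the 9 were higher past 1.5-fold (Upk1b 47.5-fold, Upk3b 33.6-fold, Wt1 16.6-fold, Krt18 6.47-fold and Cdh1 2.21-fold) and 1 was lower (Msln, -1.43 log2). In TM against WT 0 were higher and 2 lower past that limit, Msln (-3.61 log2) and Krt19 (-1.81 log2). Cdh1 and Epcam, the defining epithelial genes, lay below the median gene of every array. Xist, which coats an inactive X, averaged 5.72 ± 0.0987 in TM, 12.56 ± 0.0678 in DM and 5.70 ± 0.0534 in WT (SD, n = 3 each). Genes of the Y chromosome, Kdm5d (-1.49), Uty (-1.74) and Eif2s3y (-2.01), were lower in DM than in WT, so the DM cultures stood apart in genes of both sex chromosomes. In TM against WT these 3 gave -0.022, 0.04 and 0.062, and Xist 0.019, none called. Prdx4 is X-linked, and the methods write it +/+ for control and m/y for TM MEFs. The WT arrays nonetheless lay with TM in these genes, and the reason was not tested. The part of these differences in the results was not tested. Within a genotype, arrays correlated between 0.997 and 0.999 over all genes.

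In TM MEFs 22 of the 48 genes were lower than in WT and none was higher, at an adjusted p under 0.05 with no limit on the fold (limma, Benjamini-Hochberg over all 19938 genes). At an unadjusted p under 0.05 in that fit 0 members were higher and 26 lower, and the methods' t-test called 0 higher with and without adjustment. The shift was small for most of them. Only 5 also passed 1.5-fold, the study's own limit: Cdc25b, Hmgb2, Aurka, Bub1b and Ncapd2. They are 10.4% of the members, beside 3.56% of all genes called lower by the same rule and 5.59% called higher. At any fold the members called lower made up 45.8%, beside 18.0% of all genes, and those called higher 0.00%, beside 13.8%. The median log2 fold change was -0.168 over the members and -0.029 over all genes, 42 members had a value below 0, and the range was -0.67 to 0.11. Arrays did not overlap for 30 members that were lower and 2 that were higher, Bub3 and Smc2, 62.5% and 4.17% of the list, beside 25.1% and 18.3% of all genes. The count past 1.5-fold was 3 without TM array 2, TM array 3, WT array 2 or WT array 3, since 4 of the 5 genes lay close to that limit. In bulk RNA, fewer cells in G2 or mitosis and less of these mRNAs per such cell cannot be told apart.

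Genes between the lowest and the highest mean level of the members were called lower more often than genes overall. They were not matched to the members gene by gene. Among the 6704 genes whose mean level lay within that of the members, a set chosen after the data were seen, 30.6% were lower and 16.2% higher in TM than in WT at any fold, and 4.62% were lower and 5.44% higher past 1.5-fold, with a median of -0.079. Without overlap of arrays 2749 of the 6704 were lower and 1470 higher, beside 30 and 2 of the 48 members. At any fold the members' 45.8% thus stood beside 30.6% in that set and 18.0% over all genes. Other scalings of the arrays moved both shares together. With arrays centred on their medians 64.6% of the members were lower, beside 43.5% of the genes in the level range, with quantile normalization 43.8% beside 26.1%, and with cyclic loess 35.4% beside 22.3%. A few members were then called higher. The split of higher and lower calls was 2 and 21 with quantile normalization and 2 and 17 with cyclic loess, beside 0 and 22 as deposited.

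**Figure D1:**
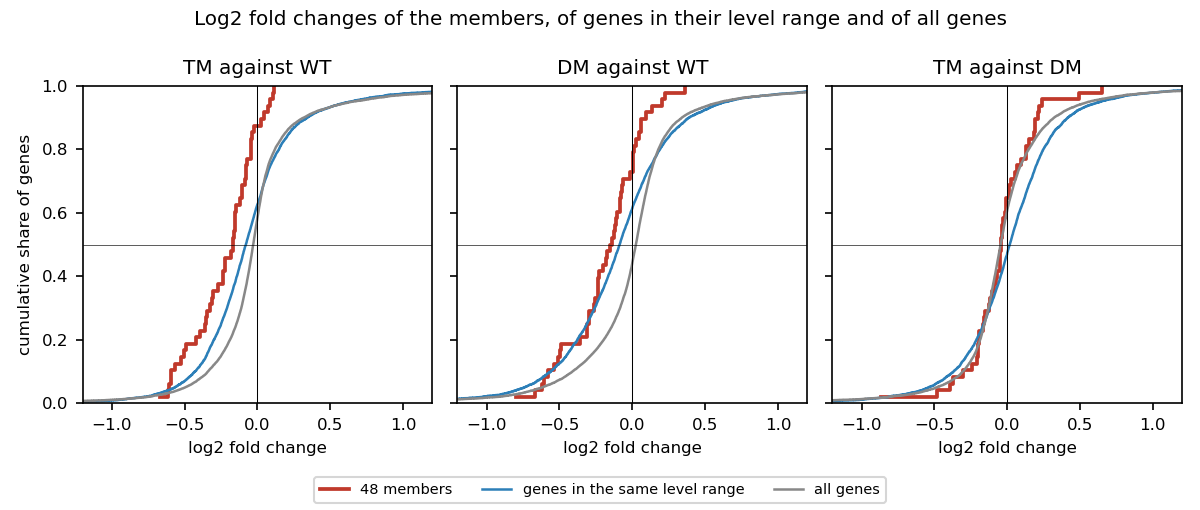
Cumulative share of genes (vertical axis) by log2 fold change (horizontal axis) for the 48 members, the 6704 genes in the same level range and all 19938 genes, in TM against WT, DM against WT and TM against DM. In the first panel the members' median (-0.168) lies to the left of the others (-0.079 in the level range and -0.029 over all genes). Their curve starts at -0.67, and the other curves begin further to the left. In the third panel the medians are -0.045 for the members, 0.017 for the level range and -0.046 for all genes.

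In DM MEFs 22 members were lower than in WT and 2 were higher, Pttg1 and Kif2c. Of these, 4 were lower by over 1.5-fold: Spc25, Hmgb2, Cdc25b and Ndc80. They were 8.33% of the members, beside 5.67% of all genes lower and 5.28% higher by that rule. At any fold 45.8% of the members were lower and 4.17% higher, beside 19.8% and 17.0% of all genes, and within the members' level range the shares were 36.4% lower and 19.5% higher. Past 1.5-fold the members' 8.33% lower and 0.00% higher stood beside 9.26% and 5.79% within that range. The members' median was -0.147, that of all genes 0.025 and that of the level range -0.087. Arrays did not overlap for 24 members that were lower and 2 that were higher, beside 23.9% and 22.5% of all genes. In DM the counts moved with the scaling. With quantile normalization 4 members were called higher and 14 lower, and with cyclic loess 5 higher and 13 lower, which made 29.2% and 27.1% lower, beside 29.9% and 27.8% of the genes in the level range. Under median centring 62.5% were lower, beside 48.3%.

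**Figure D2:**
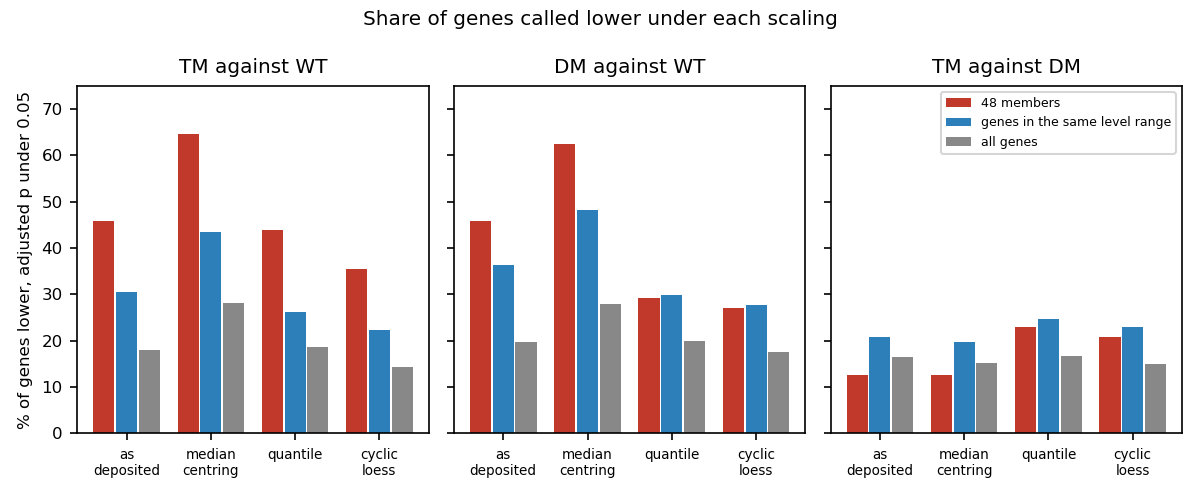
Percent of genes called lower at an adjusted p under 0.05 and any fold (vertical axis) under the deposited scale, median centring, quantile normalization and cyclic loess, for the 48 members, the genes in their level range and all genes, in 3 comparisons. In TM against WT the members' share stays above that of the level range under every scaling shown (35.4% beside 22.3% at the lowest), whereas in DM against WT the shares are level under quantile normalization and cyclic loess (29.2% beside 29.9%, and 27.1% beside 27.8%).

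Both mutants were set against the same 3 WT arrays, so their lists are not independent. Side by side, 14 members were called lower in both mutants (Anln, Aurka, Bub1, Bub1b, Ccnb2, Ccnf, Cdc25b, Cenpe, Espl1, Hmgb2, Incenp, Kif18a, Ncapd2 and Plk1). A further 8 were called lower in TM against WT and not in DM against WT (Cdc25c, Cdk1, Cenpa, Ect2, Kif11, Pttg1, Ttk and Ube2c), and 8 in DM against WT and not in TM against WT (Ccna2, Cdc20, Kif23, Ndc80, Nusap1, Prc1, Smc4 and Spc25). How many of all genes fall in each of these patterns was not counted, so the overlap is not read as particular to the members. In the single comparisons 18.0% of all genes were lower in TM and 19.8% in DM, and 30.6% and 36.4% of those in the members' level range. The direct comparison of TM with DM separated only some of the members called in 1 mutant. Of the first 8, Cdc25c, Cenpa and Pttg1 were lower in TM than in DM, and of the second 8, Ccna2, Ndc80, Prc1 and Spc25 were higher in TM than in DM. The remaining 9 did not pass the test of that difference.

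Between TM and DM the adjusted calls among the members were even in number on the deposited scale. At any fold 6 were higher in TM (Spc25, Ndc80, Prc1, Bub1, Bub3 and Ccna2) and 6 lower (Pttg1, Cdc25c, Bub1b, Cenpa, Kif2c and Kif4), 12.5% each, beside 15.4% of all genes higher and 16.5% lower. Past 1.5-fold Spc25 was higher and Pttg1 lower, 2.08% each, beside 4.68% and 3.61% of all genes. In the members' level range 24.6% were higher and 20.9% lower at any fold, and 5.71% and 4.18% past 1.5-fold. Arrays did not overlap for 9 members that were higher and 9 that were lower in TM (18.8% each), beside 18.5% and 21.6% of all genes. Of the 6704 genes in the level range, 1982 were higher and 1769 lower without overlap. The median was -0.045 over the members, -0.046 over all genes and 0.017 in the level range. Values below 0 were found for 31 members and values above 0 for 17, beside 12108 and 7828 of all genes. In the level range they were 3165 and 3539. At an unadjusted p under 0.05 (limma) 8 members were higher and 13 lower. With quantile normalization 3 were higher and 11 lower, and with cyclic loess 5 higher and 10 lower, so the even split holds on the deposited scale and under median centring.

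**Figure D3:**
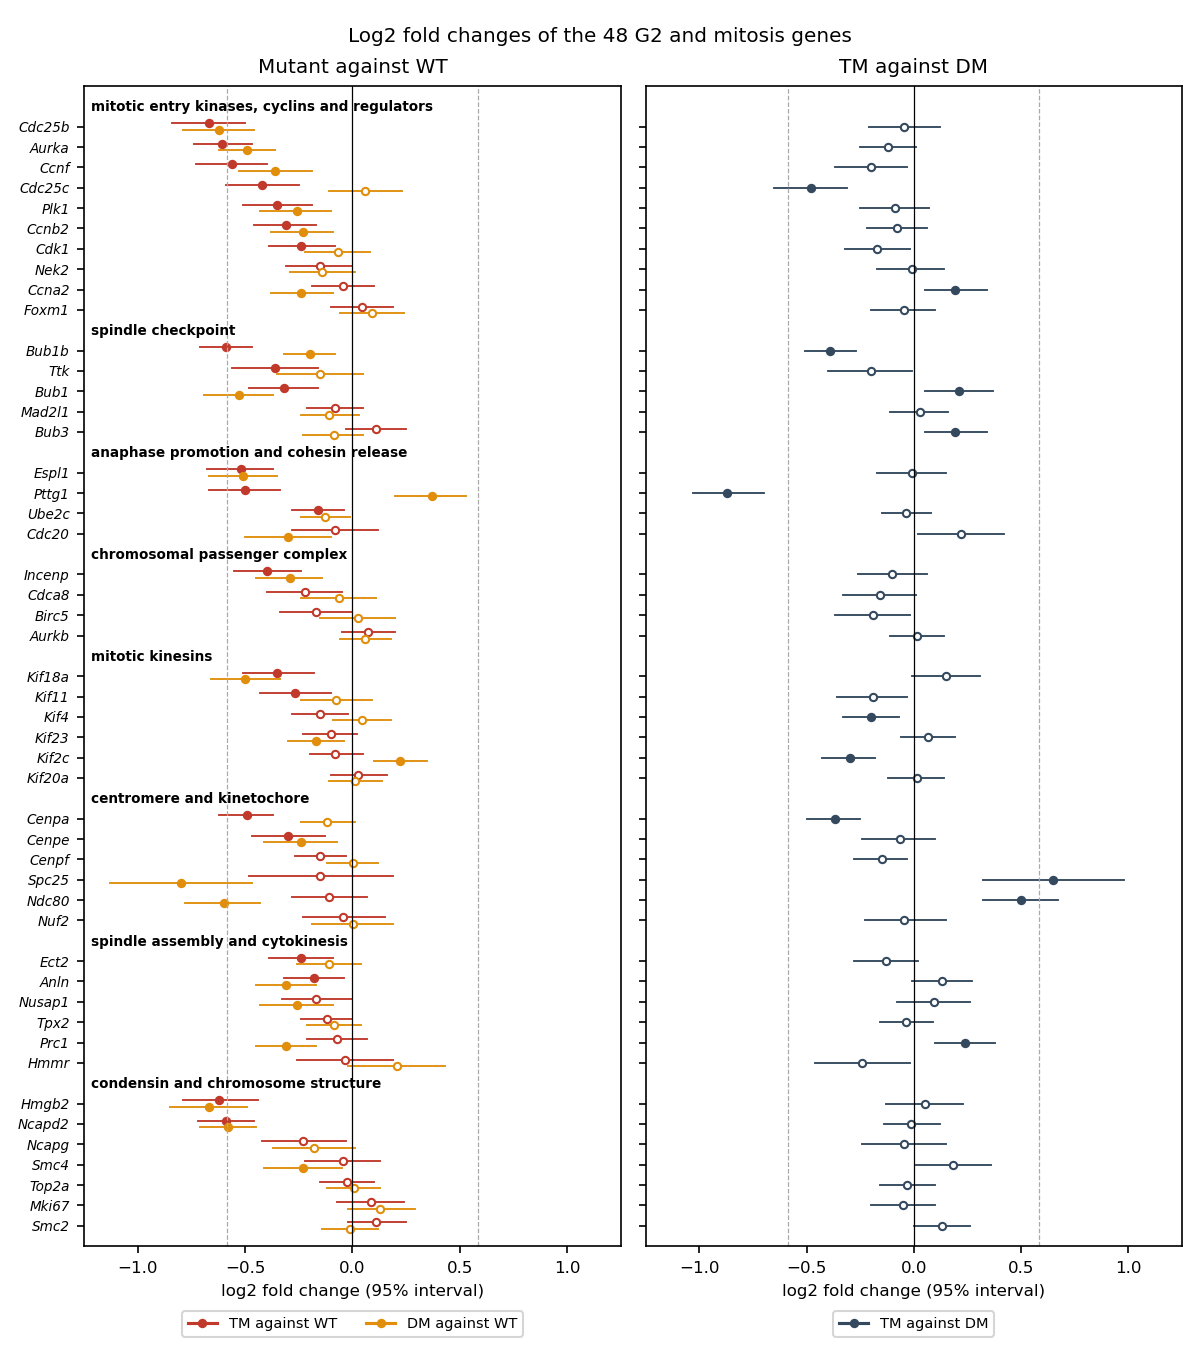
Log2 fold change (horizontal axis) of each of the 48 members, grouped by role down the page, in TM against WT, DM against WT and TM against DM, with bars for the 95% confidence interval. Filled points have an adjusted p under 0.05 (limma) and dashed lines mark 1.5-fold: in TM against WT 22 points on the left of 0 are filled and none on the right, while in TM against DM filled points stand on both sides, 6 each.

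Mitotic entry was the longest of the role lists, with 10 genes. In TM against WT 7 of them were lower (70.0%), with a median of -0.333, and in DM against WT 6 were (60.0%), with a median of -0.235. The shares of this and the following role lists stand beside 18.0% of all genes lower in TM and 19.8% in DM. In the members' level range 30.6% were lower in TM and 36.4% in DM. With so few genes in a list, a single call moves its share far. Cdc25b (probe set 10476252), a phosphatase that activates CDK1 at the centrosome, read 10.50, 10.37 and 10.23 in the TM arrays and 10.42, 10.35 and 10.47 in the DM arrays, against 10.93, 11.10 and 11.07 in the WT arrays. All 6 mutant arrays lay below all 3 WT arrays, and TM and DM overlapped. The fall was 1.59-fold in TM (-0.67 log2, SE 0.0763, adjusted p = 1.93e-05) and 1.54-fold in DM (-0.62, SE 0.0763, adjusted p = 3.16e-05). Aurka (probe set 10490104), the Aurora kinase that matures centrosomes and activates PLK1, read 10.96, 10.83 and 10.79 in TM and 10.99, 10.94 and 11.02 in DM, against 11.43, 11.50 and 11.48 in WT. Its mutant arrays were again all below WT. It fell by 1.52-fold in TM (adjusted p = 5.75e-06) and 1.4-fold in DM (adjusted p = 3.47e-05), and without TM array 3 its TM value was -0.571, under the 1.5-fold limit.

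Cdc25c, the sister phosphatase of CDC25B, differed between the mutants. It read 9.14, 8.86 and 9.10 in TM and 9.50, 9.48 and 9.55 in DM, against 9.38, 9.55 and 9.42 in WT, the TM arrays below all others and the DM arrays within the WT spread or next to it. The log2 fold change was -0.42 in TM against WT (adjusted p = 0.00101), 0.059 in DM against WT (adjusted p = 0.601) and -0.48 in TM against DM (adjusted p = 0.000402). Ccna2, the cyclin A of S phase and G2, read 13.03, 13.04 and 13.06 in TM and 12.84, 12.73 and 12.98 in DM, against 13.10, 13.04 and 13.12 in WT. Here DM was the lower genotype (-0.24 against WT, adjusted p = 0.0126), and TM gave -0.044 with an interval of -0.19 to 0.10. Ccnf, a cyclin that serves as an F-box protein in ubiquitin ligation, was lower in TM (-0.56) and DM (-0.36), as were Plk1, the Polo kinase (-0.35 in TM and -0.26 in DM), and Ccnb2, a B-type cyclin (-0.31 in TM and -0.23 in DM). Cdk1, the kinase that mitotic cyclins activate, was -0.24 in TM against WT (adjusted p = 0.02) and -0.068 in DM against WT (adjusted p = 0.492). Foxm1, the transcription factor of the programme, gave 0.045 in TM (interval -0.10 to 0.19) and 0.092 in DM (interval -0.06 to 0.24), and Nek2, a centrosome kinase, -0.15 and -0.14 in TM and DM against WT, none of which passed the test.

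In the spindle checkpoint, 3 of 5 genes were lower in TM and 2 in DM (60.0% and 40.0%). Bub1b (probe set 10474769), whose product BUBR1 restrains the anaphase-promoting complex, read 10.49, 10.37 and 10.44 in TM and 10.80, 10.80 and 10.87 in DM, against 11.03, 11.04 and 11.00 in WT. The genotypes formed 3 separate steps with no overlap, TM lowest and WT highest. It fell by 1.51-fold in TM against WT (adjusted p = 2.95e-06) and by 1.15-fold in DM against WT (adjusted p = 0.0117), and TM was below DM by 1.31-fold (adjusted p = 0.000128). The TM value was -0.563 without TM array 2, and the fall in DM did not pass under quantile normalization or cyclic loess. Bub1, the kinase that gathers checkpoint proteins at the kinetochore, read 11.52, 11.45 and 11.59 in TM and 11.35, 11.16 and 11.41 in DM, against 11.89, 11.87 and 11.77 in WT. Here the order of the mutants was the reverse, with DM lowest. Its log2 fold change was -0.32 in TM (adjusted p = 0.00463), -0.53 in DM (adjusted p = 8.79e-05) and 0.21 in TM against DM (adjusted p = 0.0453), the last not passing under quantile normalization.

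Bub3, the WD-repeat partner of BUB1 and BUBR1, read 11.40, 11.40 and 11.50 in TM and 11.18, 11.18 and 11.36 in DM, against 11.34, 11.35 and 11.29 in WT. The TM arrays lay just above WT, by 0.11 (adjusted p = 0.261), and above DM by 0.19 (adjusted p = 0.0379). The first of these passed under quantile normalization and cyclic loess, and the second did not pass under quantile normalization. Mad2l1, the protein that captures the anaphase activator CDC20, read 12.16, 12.08 and 12.15 in TM and 12.05, 12.08 and 12.18 in DM, against 12.28, 12.14 and 12.20 in WT, overlapping throughout. Its interval was -0.21 to 0.05 in TM against WT and -0.24 to 0.03 in DM against WT. Ttk, the kinase MPS1 at the head of the checkpoint, was lower in TM (-0.36, adjusted p = 0.00897) and gave -0.15 in DM (adjusted p = 0.223).

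The gene that set the mutants apart most was Pttg1 (probe set 10385325), which encodes securin, the inhibitor of separase. It read 10.32, 10.25 and 10.33 in TM and 11.03, 11.34 and 11.13 in DM, against 10.75, 10.81 and 10.84 in WT. No arrays overlapped between genotypes, and WT stood in the middle. Pttg1 fell in TM against WT (-0.50 log2, SE 0.0757, adjusted p = 0.000219), rose in DM against WT (0.37, SE 0.0757, adjusted p = 0.00203) and was 1.82-fold lower in TM than in DM (-0.87, SE 0.0757, adjusted p = 1.91e-06). Espl1, separase itself, read 10.10, 10.03 and 9.88 in TM and 9.99, 10.10 and 9.95 in DM, against 10.44, 10.53 and 10.61 in WT. It was lower in both mutants, -0.52 in TM (adjusted p = 0.000104) and -0.51 in DM (adjusted p = 0.000105), while TM and DM overlapped. Of the 4 genes of anaphase, 3 were lower in TM, and 2 were lower and 1 higher in DM. The inhibitor and its target moved the same way in TM and opposite ways in DM.

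Cdc20, the activator of the anaphase-promoting complex, read 11.76, 11.67 and 11.43 in TM and 11.46, 11.26 and 11.49 in DM, against 11.71, 11.61 and 11.78 in WT. TM spread across the WT values, and DM lay below them (-0.30, adjusted p = 0.0218), a call lost under quantile normalization and cyclic loess. Ube2c, the ubiquitin-conjugating enzyme of that complex, read 12.32, 12.39 and 12.37 in TM and 12.39, 12.40 and 12.40 in DM, against 12.52, 12.58 and 12.48 in WT. Every mutant array was below WT, at -0.16 in TM (adjusted p = 0.0367) and -0.13 in DM (adjusted p = 0.0866), so that only TM passed, and not under cyclic loess. Of 14 genes listed with that complex, its subunits and the second conjugating enzyme Ube2s, the 1 called in TM against WT was Ube2s (-0.52, adjusted p = 5.14e-05). In DM against WT Ube2s (-0.52, adjusted p = 4.83e-05) and the subunit gene Anapc16 (-0.48) were lower, and the subunit genes Anapc4 (0.28) and Cdc27 (0.26) were higher. The share lower was 7.14% of the 14 in TM, beside 18.0% of all genes. In DM 14.3% were lower and 14.3% higher, beside 19.8% and 17.0% of all genes.

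The chromosomal passenger complex, which corrects faulty attachments, had 1 of 4 genes lower in each mutant. That gene was Incenp, the scaffold, at 10.39, 10.19 and 10.20 in TM and 10.35, 10.37 and 10.37 in DM, against 10.53, 10.75 and 10.69 in WT. It fell by 1.32-fold in TM (adjusted p = 0.000999) and 1.23-fold in DM (adjusted p = 0.00658), with no array of either mutant inside the WT range. Aurkb, the kinase of the complex, read 12.38, 12.28 and 12.34 in TM and 12.32, 12.36 and 12.27 in DM, against 12.22, 12.29 and 12.27 in WT, and the groups overlapped. Its interval ran -0.05 to 0.20 in TM against WT and -0.06 to 0.18 in DM against WT, bounds well short of the fall seen for Aurka. Birc5, survivin, read 10.23, 10.17 and 10.29 in TM and 10.34, 10.63 and 10.31 in DM, against 10.39, 10.42 and 10.39 in WT, with 1 DM array above all others. Neither it (-0.17 in TM and 0.025 in DM) nor Cdca8, borealin (-0.22 in TM, adjusted p = 0.0507, and -0.064 in DM), passed the test.

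Among the 6 mitotic kinesins 2 were lower in TM, and 2 were lower and 1 higher in DM. The share lower was 33.3% in each, near the 30.6% and 36.4% of the members' level range. Kif18a, a motor that dampens chromosome movement at the plus ends of microtubules, was lower in both mutants. It read 9.30, 9.30 and 9.34 in TM and 9.14, 9.08 and 9.27 in DM, against 9.82, 9.57 and 9.60 in WT, all mutant arrays below WT. The log2 fold change was -0.35 in TM (adjusted p = 0.00305) and -0.50 in DM (adjusted p = 0.000171). Kif11, the Eg5 motor that pushes spindle poles apart, was lower in TM (-0.27, adjusted p = 0.0166), and Kif23, a motor of the central spindle, in DM (-0.17, adjusted p = 0.0351). Kif2c, which takes microtubules apart at centromeres, went the other way and was higher in DM than in WT (0.22, adjusted p = 0.0085), though not under median centring, and lower in TM than in DM (-0.30, adjusted p = 0.00139). Kif4, an X-linked chromokinesin, was lower in TM than in DM (-0.20, adjusted p = 0.0243) and gave -0.15 in TM and 0.045 in DM against WT. Kif20a, a motor needed for cytokinesis, read 12.01, 12.01 and 12.03 in TM and 12.05, 11.90 and 12.06 in DM, against 11.95, 12.01 and 12.00 in WT, overlapping throughout. Its interval was -0.10 to 0.16 in TM against WT and -0.11 to 0.14 in DM against WT.

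Of the 6 kinetochore genes, 2 were lower in TM and 3 in DM. Spc25 (probe set 10483401) and Ndc80 (probe set 10452709) encode subunits of the NDC80 complex, which grips the microtubule. Spc25 read 10.48, 10.10 and 10.30 in TM and 9.67, 9.50 and 9.76 in DM, against 10.67, 10.02 and 10.63 in WT. The DM arrays lay below the other 6, while TM overlapped with WT, whose second array was far below the other WT arrays. Spc25 was 1.74-fold lower in DM than in WT (-0.80 log2, SE 0.152, adjusted p = 0.00112) and 1.57-fold higher in TM than in DM (0.65, SE 0.152, adjusted p = 0.00565). Its fold in TM against DM came to 0.556 on the log2 scale without TM array 1 and 0.58 without DM array 2, under the limit, and the methods' t-test with Benjamini-Hochberg adjustment did not call the fall in DM against WT. Ndc80 read 10.29, 10.25 and 10.40 in TM and 9.70, 9.81 and 9.94 in DM, against 10.49, 10.28 and 10.49 in WT. Again DM alone stood below. It was -0.60 in DM against WT (adjusted p = 6.56e-05) and 0.50 in TM against DM (adjusted p = 0.000416), and between -0.543 and -0.567 in DM against WT without DM array 1, WT array 1 or WT array 3.

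Nuf2, the partner of NDC80 in the same complex, did not follow them, at 10.30, 10.22 and 10.30 in TM and 10.30, 10.14 and 10.51 in DM, against 10.27, 10.43 and 10.24 in WT. The groups overlapped and the intervals were -0.23 to 0.15 in TM and -0.19 to 0.19 in DM against WT. Spc24, the fourth subunit and no member of the 48, averaged 8.86 ± 0.125 in TM and 9.11 ± 0.131 in DM, against 9.50 ± 0.0156 in WT (SD, n = 3 each), lower in both mutants (-0.64, adjusted p = 3.93e-05 in TM, and -0.39, adjusted p = 0.00169 in DM). Of these 4 subunits, Spc25 and Ndc80 were called in DM against WT and in TM against DM, Spc24 in all 3 comparisons and Nuf2 in none of them. Cenpa, the centromeric histone, read 11.39, 11.34 and 11.46 in TM and 11.83, 11.72 and 11.76 in DM, against 11.88, 11.92 and 11.87 in WT. TM was below both other groups, at -0.49 against WT (adjusted p = 2.34e-05) and -0.37 against DM (adjusted p = 0.000266) on the log2 scale. Cenpf, a large outer kinetochore protein, read 10.23, 10.27 and 10.35 in TM and 10.39, 10.43 and 10.49 in DM, against 10.42, 10.43 and 10.46 in WT, TM lowest (-0.15 against WT, adjusted p = 0.0601) and DM within the WT spread or next to it. Cenpe, the kinetochore kinesin, was lower in both mutants (-0.30 in TM and -0.24 in DM).

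**Figure D4:**
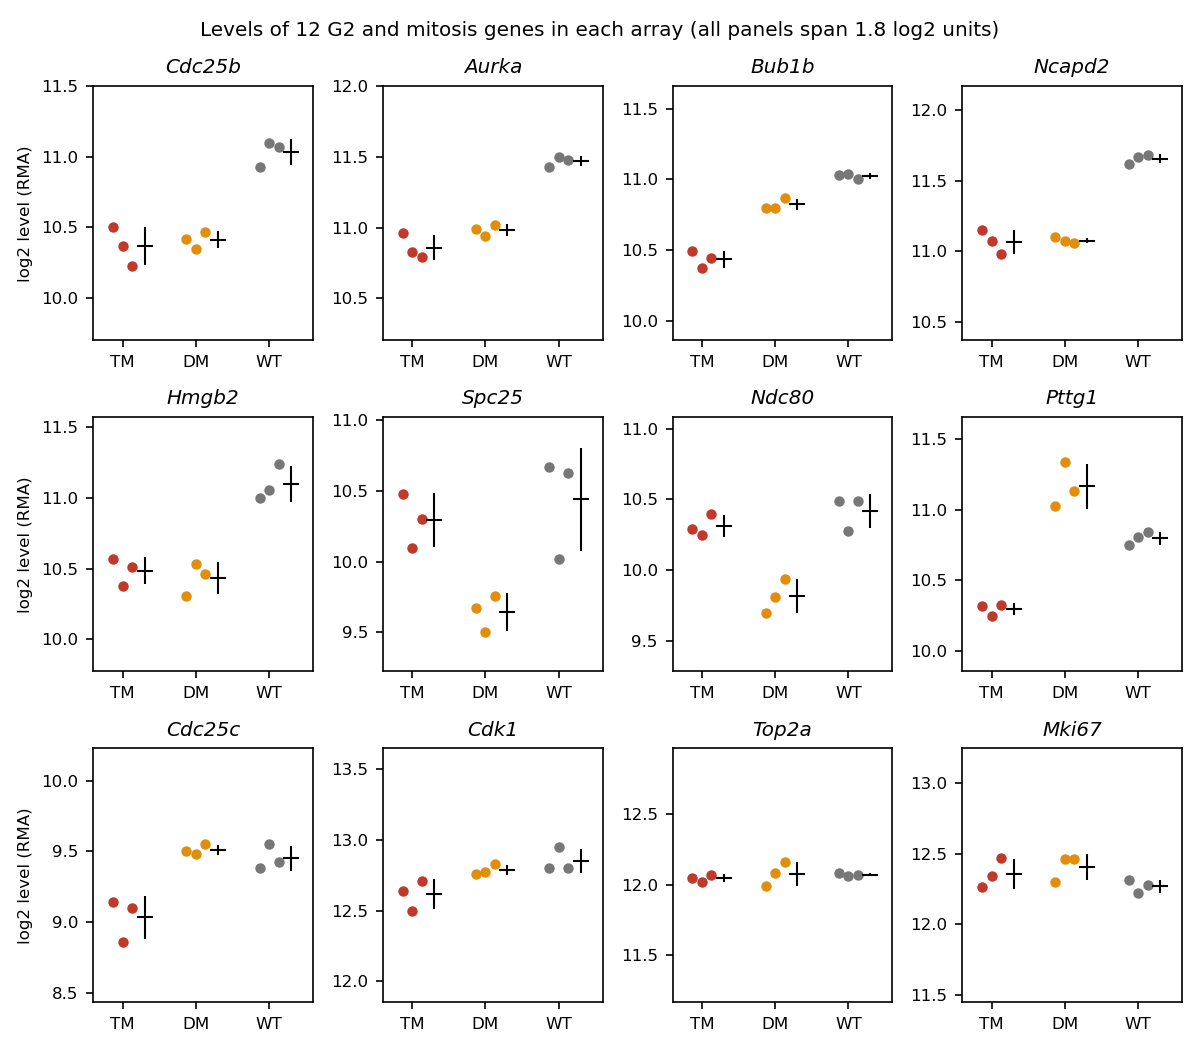
Log2 levels (vertical axis) of 12 members in each array, TM, DM and WT from left to right, with 1 point an array and a dash with bars beside them for the mean and SD of 3. Every panel spans the same range. Cdc25b, Aurka, Ncapd2 and Hmgb2 show both mutants below WT, Bub1b shows 3 steps, Spc25 and Ndc80 show DM alone below, and Pttg1 shows TM below and DM above WT.

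Of the genes of spindle assembly and cytokinesis, 2 of 6 were lower in TM and 3 in DM. Prc1, which bundles the central spindle, read 11.57, 11.57 and 11.57 in TM and 11.35, 11.20 and 11.43 in DM, against 11.68, 11.59 and 11.65 in WT. Its TM arrays were nearly identical (SD 5.77e-05), and DM lay below both other groups (-0.31 against WT, adjusted p = 0.00194, with TM above DM by 0.24, adjusted p = 0.0126). Ect2, the exchange factor that places the cleavage furrow, read 12.10, 12.15 and 12.21 in TM and 12.29, 12.16 and 12.39 in DM, against 12.44, 12.33 and 12.40 in WT. The fall was called in TM (-0.24, adjusted p = 0.0167) except under cyclic loess, and DM overlapped with WT (-0.11, adjusted p = 0.237). Anln, anillin of the contractile ring, was lower in TM (-0.18, adjusted p = 0.0472) and in DM (-0.31, adjusted p = 0.00208), the TM call being lost under quantile normalization and cyclic loess. Nusap1, a microtubule-bundling protein, was lower in DM (-0.26, adjusted p = 0.0188) and gave -0.17 in TM.

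Tpx2, the activator of Aurora A on the spindle, read 11.63, 11.55 and 11.55 in TM and 11.59, 11.60 and 11.65 in DM, against 11.66, 11.76 and 11.67 in WT. All mutant arrays were below WT but close to it, with intervals of -0.24 to 0.00 in TM and -0.21 to 0.04 in DM. Hmmr, the hyaluronan receptor that binds TPX2 at the spindle, read 9.71, 9.62 and 9.96 in TM and 9.86, 9.95 and 10.21 in DM, against 9.84, 9.86 and 9.70 in WT. It was the most scattered of that list and was not called (-0.035 in TM and 0.21 in DM), except that DM was called higher than WT under quantile normalization and cyclic loess.

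In the last list, the 7 genes of condensin and chromosome structure, 2 were lower in TM and 3 in DM (28.6% and 42.9%). The same 2 fell furthest in both. The TM share was below the 30.6% of the members' level range. Ncapd2 (probe set 10547943), a subunit of condensin I, read 11.15, 11.07 and 10.98 in TM and 11.10, 11.07 and 11.06 in DM, against 11.62, 11.67 and 11.68 in WT. The mutants overlapped fully and lay far below WT, by 1.51-fold in TM (adjusted p = 5.7e-06) and 1.49-fold in DM (adjusted p = 6e-06). Its TM value lay between -0.547 and -0.583, under the limit, without TM array 3, WT array 2 or WT array 3. Hmgb2 (probe set 10518350), a chromatin protein that bends DNA, read 10.57, 10.38 and 10.51 in TM and 10.31, 10.53 and 10.46 in DM, against 11.00, 11.06 and 11.24 in WT. Both mutants were again below WT without overlap, by 1.53-fold in TM (adjusted p = 7.78e-05) and 1.59-fold in DM (adjusted p = 3.22e-05). Without TM array 2 its TM value was -0.56 and without WT array 3 it was -0.544. Its 3 other probe sets had every mutant array below every WT array too, but the files do not say whether these probe sets read distinct loci or near-identical copies of the gene.

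Top2a, the topoisomerase that untangles sister chromatids, and Mki67, the proliferation antigen Ki-67, are widely read as marks of dividing cells. Top2a read 12.05, 12.02 and 12.07 in TM and 11.99, 12.08 and 12.16 in DM, against 12.08, 12.06 and 12.07 in WT. The groups overlapped, and the intervals were -0.15 to 0.10 in TM and -0.12 to 0.13 in DM against WT. A second, dim probe set of Top2a read lower in every mutant array than in any WT array. Mki67 gave 0.085 in TM (interval -0.07 to 0.24) and 0.13 in DM (interval -0.02 to 0.29), and it was called higher in DM under quantile normalization and cyclic loess. The condensin ATPase genes Smc2 (0.11 in TM and -0.013 in DM) and Smc4 (-0.044 in TM, and -0.23, adjusted p = 0.0453, in DM) did not follow Ncapd2 in TM, nor did Ncapg, another subunit (-0.23 in TM, adjusted p = 0.0721, and -0.18 in DM).

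Members that move together can be set beside their promoters, for which RefSeq windows of the GRCm38.p6 build were used, 300 bases a gene spanning the annotated start. A window was at hand for 40 of the 48 members. The letters TTTGAA or TTCGAA, the core of the CHR, stood on either strand in 32 of them (80.0%), beside 16.8% of 15614 genes measured here. CCAAT stood on either strand in 31 (77.5%), beside 38.2%, and both in 29 (72.5%), beside 6.84%. GGCGGGAA or GCGCGAAA, letters of E2F sites, stood in 1 (2.50%, Cdk1), beside 3.52%. The median log2 fold change was -0.224 in TM and -0.175 in DM for the 32 members with CHR letters, and -0.168 in TM and -0.123 in DM for the 8 without. A match describes the letters and is neither a binding site nor a cause. Shown here are 3 members that fell in TM (Cdc25b, Aurka and Bub1b), Top2a, which holds 4 CHR matches and 6 of CCAAT and was not called, Spc25, which was lower in DM and not called in TM, and Pttg1, which moved opposite ways in the mutants and holds neither motif. Each runs 5′ to 3′ on the gene's strand, with CHR and CCAAT letters of either strand in capitals.
Cdc25b (chr2:131186698-131186997, plus strand): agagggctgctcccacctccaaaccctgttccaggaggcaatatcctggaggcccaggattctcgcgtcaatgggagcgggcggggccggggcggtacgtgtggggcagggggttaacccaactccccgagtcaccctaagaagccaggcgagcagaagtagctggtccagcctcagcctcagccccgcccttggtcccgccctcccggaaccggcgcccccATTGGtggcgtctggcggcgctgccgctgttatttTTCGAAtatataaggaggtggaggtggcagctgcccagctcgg
Aurka (chr2:172370521-172370820, minus strand): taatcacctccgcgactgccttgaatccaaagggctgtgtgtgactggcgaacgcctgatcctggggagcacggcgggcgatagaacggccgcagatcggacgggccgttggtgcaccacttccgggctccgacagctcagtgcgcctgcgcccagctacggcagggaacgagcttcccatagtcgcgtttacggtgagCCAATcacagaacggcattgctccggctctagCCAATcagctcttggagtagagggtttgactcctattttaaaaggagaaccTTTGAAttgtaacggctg
Bub1b (chr2:118597961-118598260, plus strand): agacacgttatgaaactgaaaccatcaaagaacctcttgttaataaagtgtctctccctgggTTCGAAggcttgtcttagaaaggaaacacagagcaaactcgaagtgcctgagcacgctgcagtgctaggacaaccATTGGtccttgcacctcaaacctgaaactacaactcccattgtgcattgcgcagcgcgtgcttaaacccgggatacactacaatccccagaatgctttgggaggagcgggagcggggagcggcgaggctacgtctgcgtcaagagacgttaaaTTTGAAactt
Top2a (chr11:99024140-99024439, minus strand): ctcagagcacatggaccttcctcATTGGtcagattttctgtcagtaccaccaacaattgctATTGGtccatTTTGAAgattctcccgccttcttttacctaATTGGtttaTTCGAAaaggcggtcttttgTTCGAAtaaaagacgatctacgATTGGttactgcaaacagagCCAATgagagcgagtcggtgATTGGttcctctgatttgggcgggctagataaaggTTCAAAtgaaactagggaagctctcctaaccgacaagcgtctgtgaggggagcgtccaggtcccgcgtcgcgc
Spc25 (chr2:69206164-69206463, minus strand): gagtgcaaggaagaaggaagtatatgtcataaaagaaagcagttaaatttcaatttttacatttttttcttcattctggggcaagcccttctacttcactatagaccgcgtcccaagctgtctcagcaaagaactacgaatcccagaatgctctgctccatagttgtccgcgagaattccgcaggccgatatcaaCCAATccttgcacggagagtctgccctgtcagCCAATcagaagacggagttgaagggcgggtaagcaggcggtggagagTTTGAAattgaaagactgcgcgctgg
Pttg1 (chr11:43425932-43426231, minus strand): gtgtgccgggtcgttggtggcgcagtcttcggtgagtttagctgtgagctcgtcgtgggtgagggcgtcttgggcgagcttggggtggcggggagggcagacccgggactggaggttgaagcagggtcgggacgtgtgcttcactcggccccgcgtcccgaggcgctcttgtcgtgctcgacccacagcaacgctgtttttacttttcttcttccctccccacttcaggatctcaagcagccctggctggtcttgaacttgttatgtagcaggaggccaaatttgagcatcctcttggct

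Other genes of the cell cycle were set beside the 48. Of 86 further G2 and mitosis genes measured, 33 were lower and 5 higher in TM than in WT at any fold (38.4% and 5.81%), with a median of -0.129, and 40 were lower and 7 higher in DM than in WT (46.5% and 8.14%), with a median of -0.156. Beside these stood 45.8% of the members lower in each mutant, 18.0% of all genes in TM and 19.8% in DM, and 30.6% and 36.4% of the genes in the members' level range. Past 1.5-fold 2.33% of the 86 were lower in TM and 3.49% in DM, beside 10.4% and 8.33% of the members. By that limit Spc24 and Cdca3, an F-box-like trigger of mitotic entry (-0.64, adjusted p = 1.77e-05), were lower in TM, and Pmf1, a kinetochore protein of the MIS12 complex (-0.86, adjusted p = 4.37e-07), Fbxo5, the inhibitor EMI1 of the anaphase-promoting complex (-0.69, adjusted p = 6.33e-05), and Trip13, the ATPase that recycles MAD2 (-0.67, adjusted p = 0.000228), were lower in DM. Fbxo5 gave 0.0075 in TM against WT and was higher in TM than in DM (0.69, adjusted p = 7.54e-05). Psrc1, a spindle protein that is also a target of p53, was higher in both mutants (0.98, adjusted p = 6.87e-07 in TM, and 0.69, adjusted p = 1.64e-05 in DM).

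Some genes that regulate the programme passed 1.5-fold. Mybl2, which encodes B-MYB, averaged 10.19 ± 0.159 in TM and 10.35 ± 0.14 in DM, against 10.88 ± 0.0529 in WT (SD, n = 3 each), -0.69 in TM (adjusted p = 5.76e-05) and -0.53 in DM (adjusted p = 0.000409). Mybl1, which encodes its relative A-MYB, went the other way, at 10.12 ± 0.0871 in TM and 9.31 ± 0.155 in DM, against 8.91 ± 0.0942 in WT, 1.21 in TM (adjusted p = 1.81e-07) and 0.40 in DM (adjusted p = 0.00207). E2f4, the repressor E2F of the DREAM complex, was lower in both mutants (-0.77, adjusted p = 1.1e-06 in TM, and -0.81, adjusted p = 6.11e-07 in DM), and Rb1, the retinoblastoma protein that T antigen binds, was higher in both (0.98, adjusted p = 3.68e-07 in TM, and 0.51, adjusted p = 0.000114 in DM). Of the 23 regulators listed, 7 were lower and 4 higher in TM than in WT at any fold. In DM against WT 10 were lower and 3 higher. In TM 30.4% were thus lower, beside 18.0% of all genes and 30.6% of those in the members' level range. The share higher in TM was 17.4%, beside 13.8% and 16.2%, so both TM shares lay near those of the level range. In DM 43.5% were lower, beside 19.8% and 36.4%. The 3 that were higher in DM stood beside 17.0% of all genes and 19.5% of those in that range.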

How the data were processed

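Labelled cRNA of 9 MEF samples (3 each of TM, DM and WT) was read on Affymetrix Gene ST arrays. The deposited values are log2 expression, 35556 probe sets an array, made by the authors with RMA in GeneSpring GX. They also ran the PLIER algorithm, whose values were not analysed here. Probe sets with 1 gene symbol in the platform annotation (21789) were kept, and the brightest of each gene gave 19938 genes. Array medians lay between 7.62 and 7.72. A single linear model over all 9 arrays (limma 3.58.1, R 4.3.3, 6 residual degrees of freedom) gave 3 comparisons, with Benjamini-Hochberg adjustment over all genes. Calls used an adjusted p under 0.05, with and without a limit of 1.5-fold (0.585 on the log2 scale), and intervals are 95%. Alternatives were other scalings, variance models, probe set rules, a replicate block, the methods' t-test and leaving out each array. The fit was tested on simulated data. The number of arrays limits the precision. The members and lists were chosen with earlier results of these data known. Values in every array were given for members past 1.5-fold and, in each role list, for those with the largest and smallest change in either mutant; of other lists, up to 4 genes past 1.5-fold in a comparison were named. Promoters came from RefSeq (GRCm38.p6), 1 window of 300 bases a gene, the first listed where there were several.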

Additional observations from a re-analysis of the deposited data

How the results depend on the processing

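The fall of the members in TM against WT kept its direction under every scaling, variance model, probe set rule and left-out array tried, while its size moved with the scaling. The median was -0.244 under median centring and -0.091 under cyclic loess, beside -0.168 as deposited. Past 1.5-fold 1 member was lower with quantile normalization and 1 with cyclic loess (Cdc25b in both), and 2 were higher at any fold with either. Of the 22 calls as deposited 21 were kept with quantile scaling and 17 with cyclic loess. In DM against WT 8 members were lower past 1.5-fold under median centring, 2 with quantile scaling and 1 with cyclic loess. At any fold 1 was higher under median centring, 4 with quantile normalization, 5 with cyclic loess and 1 by the methods' t-test with Benjamini-Hochberg adjustment, and 14 were lower with quantile scaling, 13 with cyclic loess and 14 by that t-test, with medians of -0.237 under median centring and -0.055 under cyclic loess. In TM against DM 3 were higher with quantile normalization, 3 with only the 6 arrays compared in the fit and 2 by that t-test, and 11 were lower with quantile scaling and 10 with cyclic loess. The cause of these shifts was not tested. Top2a turned to -0.317 in DM against WT when its dim probe set was averaged in.

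Leaving out 1 array at a time gave 3 to 6 members lower past 1.5-fold and 18 to 24 at any fold in TM against WT, with a median of -0.2 to -0.157. In DM against WT it gave 3 to 4 and 16 to 22, with a median of -0.165 to -0.122. In TM against DM it gave 0 to 1 higher and 1 to 1 lower past 1.5-fold, 3 to 7 higher and 5 to 9 lower at any fold, and a median of -0.053 to -0.021. The replicate numbers did not pair the arrays: same-numbered arrays of 2 genotypes correlated between -0.239 and 0.168 in their deviations, and in 2 of 9 cases the best partner had the same number. With the replicate number as a block 5 members were lower past 1.5-fold and 20 at any fold in TM against WT, 4 and 21 were lower and 2 higher at any fold in DM against WT, and 4 were higher and 6 lower in TM against DM. Of 48 members, 5 had the same value in more than 1 array of a genotype.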

Other observations

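Genes of DNA replication and S phase, the stage before G2, were set beside the G2 and mitosis genes. Of 50 measured, 17 were lower and 3 higher in TM than in WT at any fold, with a median of -0.136, and 21 were lower and 1 higher in DM than in WT, with a median of -0.143. The share lower was thus 34.0% in TM and 42.0% in DM, beside 45.8% of the G2 and mitosis genes in each mutant and 30.6% and 36.4% of the genes in their level range. Dut, which removes dUTP before it enters DNA, averaged 10.02 ± 0.141 in TM and 10.34 ± 0.0782 in DM, against 10.66 ± 0.127 in WT (SD, n = 3 each), and its fall of 1.56-fold in TM (limma, adjusted p = 6.91e-05) was the 1 past 1.5-fold there. Mcm5, a subunit of the replicative helicase, averaged 12.03 ± 0.1 in TM and 11.98 ± 0.127 in DM, against 12.60 ± 0.0342 in WT, and its fall of 1.54-fold in DM (limma, adjusted p = 2.61e-05) was the 1 past 1.5-fold in that comparison. In TM against DM 10 of these 50 genes were higher and 1 lower in TM, and 6 and 6 of the 48 G2 and mitosis genes. Beside these, 15.4% of all genes were higher and 16.5% lower, and 24.6% and 20.9% of the genes in the level range. The share of the 50 genes that was higher thus lay above that of all genes and below that of the level range. The share that was lower lay below both. Whether the lists differ was not tested.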
